A study of Mus musculus with 24 samples.

Results

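Expression of 41 genes of ribosome biogenesis and RNA polymerase I (Pol I) was followed through muscle stem cell (MuSC) activation and differentiation in wild-type (WT) and *mdx* mice. The genes were taken by symbol from a fixed list, and all 41 were found among the 53392 genes quantified, each under 1 gene identifier. Poly(A) RNA was sequenced in 24 libraries, 3 for each of 8 groups. The groups were freshly isolated MuSCs (FiMuSCs) of uninjured hindlimb muscle, activated MuSCs (AMuSCs) taken 3 days after cardiotoxin (CTX) injury, cultured primary myoblasts, and myotubes after 2 days of differentiation, each from both genotypes. All mice carried Pax7-nGFP, a nuclear GFP reporter of the MuSC transcription factor *Pax7*. WT mice were C57BL/10ScSnJ, and *mdx* mice were of the matching strain C57BL/10ScSn-*Dmd mdx*/J, which has a point mutation in the dystrophin gene in every cell, so that muscle fibres and MuSCs both lack full-length dystrophin. Sorted MuSCs were positive for GFP and α7-integrin and negative for CD31, CD45, SCA1 and CD11b. Myoblasts were selected on magnetic columns for α7-integrin and against the same lineages, then grown with serum and basic FGF, and myotubes were formed in medium with horse serum. RNA of sorted and of cultured cells came from different extraction kits, and effects of the kit cannot be told apart from those of culture. The ages of these mice, and whether animals were pooled, are not given in the sources used here.

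Ribosome biogenesis starts in the nucleolus, where Pol I transcribes the ribosomal DNA repeats into a long precursor RNA. UBTF coats the active repeats and RRN3 brings Pol I to their promoters. Small nucleolar ribonucleoproteins then modify the precursor, and assembly factors cut, fold and export the small and the large ribosomal subunit. The transcription factor MYC, with its partner MAX, is known to activate many of these genes, and quiescent stem cells, MuSCs included, are known for low ribosome production that rises as they enter the cell cycle.

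Total counts per library ranged from 37280196 to 64429222 (median 47357463). Values of single genes are given as CPM, read counts divided by a library total that was scaled by TMM over all 24 libraries, so they give a share of the RNA of a library and not an amount per cell, and in bulk samples fewer cells of a type cannot be told apart from less RNA per cell. *Dmd*, the mutated gene, measured 205 to 230.1 CPM in WT myotubes and 38.1 to 47.1 CPM in *mdx* myotubes, and 230.4 to 262 CPM against 139 to 149.5 CPM in FiMuSCs. In AMuSCs and myoblasts, where it was low, the genotypes overlapped, at 15.4 to 20.8 CPM in WT against 16.4 to 34.4 CPM in *mdx* AMuSCs and 4.79 to 13.8 against 2.39 to 29.1 CPM in myoblasts. The 10 myogenic markers, among them *Pax7*, *Cdh15* and *Itga7*, were at 1 CPM or more on average in FiMuSCs and AMuSCs of both genotypes. The sorted cells also held RNA of genes listed as markers of other lineages. The 7 markers of leukocytes and macrophages summed to 7.49 to 22.9 CPM in WT AMuSCs and to 120 to 3586 CPM in *mdx* AMuSCs, where replicate 1 stood apart from the other two. The 5 markers of fibro-adipogenic progenitors summed to 525 to 629.7 CPM in WT AMuSCs and to 1598 to 2394 CPM in *mdx* AMuSCs. In cultured myoblasts they summed to 596 to 737 CPM in WT and 543 to 920 CPM in *mdx*, and which cells held this RNA was not tested. All 24 libraries were kept, and the *mdx* injury response is also given without *mdx* AMuSC replicate 1.

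The promoters of members were read for the E-box CACGTG, the sequence bound by MYC and MAX, because almost the whole set moved together after injury in WT. Of the 41 genes, 34 had a window in the RefSeq promoter table of GRCm38.p6, which spans 250 bases before to 50 bases after a start site. CACGTG, which reads the same on both strands, was present in windows of 8 of these 34 genes (23.5%), against 1559 of 17492 protein coding genes in the table (8.91%). The related motif CACGCG, on either strand, was present for 11 of 34 members (32.4%) and for 13.7% of protein coding genes. These shares were not tested, and the protein coding genes were not matched to the members for expression or base content. Binding of MYC or MAX was not measured. The windows printed here are those of the 4 genes with CACGTG that had the smallest adjusted p in the WT injury response. They are written 5′ to 3′ in the direction of the gene, with the E-box in capitals.
Rrn3: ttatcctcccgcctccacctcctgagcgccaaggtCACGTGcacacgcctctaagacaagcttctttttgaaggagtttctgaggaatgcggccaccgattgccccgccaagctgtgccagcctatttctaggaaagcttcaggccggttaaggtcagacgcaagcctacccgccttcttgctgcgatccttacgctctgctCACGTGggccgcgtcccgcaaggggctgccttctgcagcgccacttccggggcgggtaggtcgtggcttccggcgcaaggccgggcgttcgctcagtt
Wdr43: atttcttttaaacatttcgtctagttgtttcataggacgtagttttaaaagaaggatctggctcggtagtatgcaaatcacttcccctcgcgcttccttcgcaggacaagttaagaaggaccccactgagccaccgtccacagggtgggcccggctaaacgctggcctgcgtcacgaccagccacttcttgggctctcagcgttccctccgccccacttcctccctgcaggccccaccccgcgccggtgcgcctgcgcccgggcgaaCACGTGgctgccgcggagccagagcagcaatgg
Tsr1: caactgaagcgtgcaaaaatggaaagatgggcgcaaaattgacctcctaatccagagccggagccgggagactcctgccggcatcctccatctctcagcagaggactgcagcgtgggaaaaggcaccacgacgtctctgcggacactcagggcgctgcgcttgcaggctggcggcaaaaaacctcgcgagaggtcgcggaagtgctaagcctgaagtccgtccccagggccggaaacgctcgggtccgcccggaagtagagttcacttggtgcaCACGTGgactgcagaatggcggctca
Nop2: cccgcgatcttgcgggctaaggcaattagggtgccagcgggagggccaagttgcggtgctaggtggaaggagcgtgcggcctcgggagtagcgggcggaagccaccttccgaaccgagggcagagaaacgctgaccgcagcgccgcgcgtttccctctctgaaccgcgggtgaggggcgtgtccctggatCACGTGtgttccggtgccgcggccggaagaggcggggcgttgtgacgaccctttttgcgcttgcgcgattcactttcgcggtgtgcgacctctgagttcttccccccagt
*Rrn3* encodes the factor that links Pol I to its promoter. Its window, on the plus strand at chr16:13780449-13780748, held CACGTG 215 and 48 bases before the start site. *Wdr43* and *Tsr1* act in small subunit assembly, and *Nop2* encodes an rRNA methyltransferase of the large subunit. The window of *Wdr43*, chr17:71615965-71616264 (plus strand), held the motif 17 bases after the start site, and that of *Tsr1*, chr11:74897830-74898129 (plus strand), held it 24 bases after it. In *Nop2*, chr6:125131633-125131932 (plus strand), it lay 60 bases before the start site. The other four members with CACGTG were *Ltv1*, *Utp20*, *Pes1* and *Mybbp1a*.

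Levels differed widely within the set. By TPM, which corrects for transcript length, the highest genes on average over the 8 groups were *Npm1* (824 TPM), a nucleolar chaperone, *Nop56* (311 TPM), a core protein of box C/D ribonucleoproteins, and *Ncl* (288 TPM), which encodes nucleolin. The lowest were *Utp15* (8.37 TPM) and *Rrp12* (8.996 TPM), both of small subunit maturation, and *Bysl* (9.33 TPM), a late small subunit factor. All 41 genes passed the filter on low counts in each comparison. The sum over the 41 genes was 3592, 3658 and 3633 CPM in WT FiMuSCs and 10267, 9380.02 and 10536 CPM in WT AMuSCs. It was 8195, 8272 and 7304 CPM in WT myoblasts and 3837, 3633 and 3724 CPM in WT myotubes. The WT sum was thus high in the proliferating states and low before activation and after differentiation. In *mdx* the sum was 3144, 4048 and 4710.1 CPM in FiMuSCs and 4077, 6317 and 5727 CPM in AMuSCs, so the *mdx* AMuSCs overlapped the *mdx* FiMuSCs and lay below the 3 WT AMuSC libraries. The *mdx* myoblasts summed to 7285, 6330 and 6089 CPM and the *mdx* myotubes to 3899, 3692 and 3821 CPM. By mean CPM, 28 of the 41 genes were highest in WT AMuSCs and 23 were lowest in WT myotubes.

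**Figure D1:**
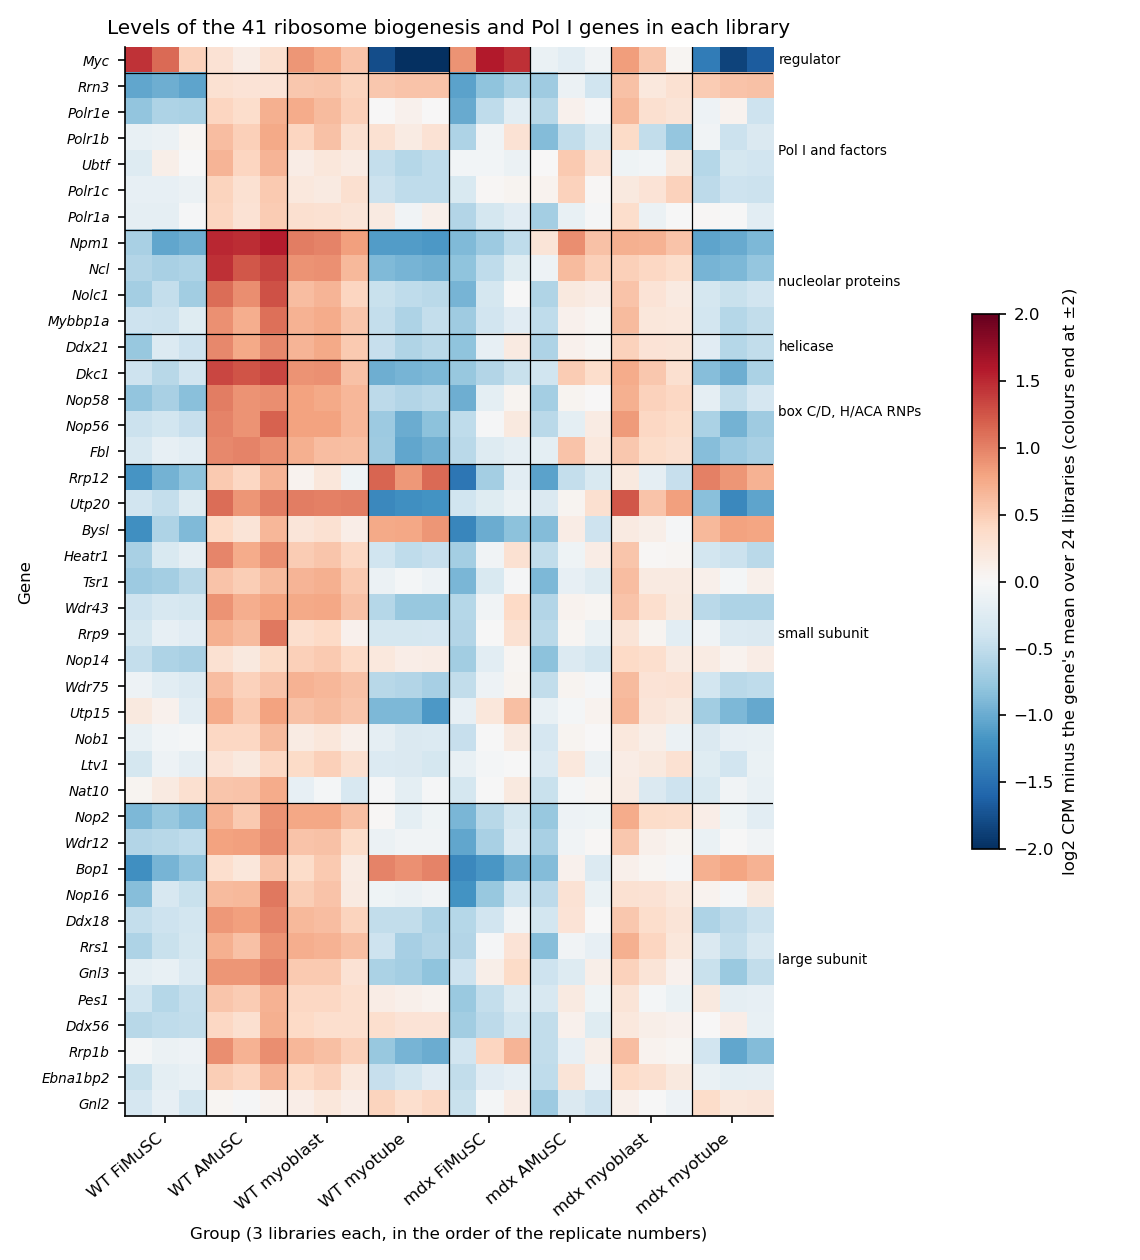
Heat map of the 41 genes (rows, ordered by role) in the 24 libraries (columns, 3 per group), with colour for log2 CPM minus the mean of the gene over all libraries, ending at ±2. Nearly all rows are above their mean in the 3 WT AMuSC libraries, the group with the highest mean CPM for 28 of the 41 genes, while Myc is highest on average in FiMuSCs and Rrp12, Bysl and Bop1 are higher in myotubes than in myoblasts.

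The injury response of WT cells was asked by comparing WT AMuSCs with WT FiMuSCs. After injury 40 of the 41 genes were higher and 1, *Myc*, was lower, at an adjusted p under 0.05 in edgeR's quasi-likelihood test. Over all 19359 genes tested, 31.6% were called higher and 33.0% lower. The median log2 fold change of the 41 genes was 1.28, a rise of 2.43-fold, against -0.08 for all genes tested. Without TMM scaling the median of all genes moved to -0.23 and that of the 41 genes to 1.13, with the same counts of calls. Other lists moved with the injury in WT. All 10 proliferation markers rose, from a sum of 202 to 340.4 CPM to a sum of 2931 to 3145 CPM. The leukocyte markers summed to 60.2 to 298 CPM in WT FiMuSCs and the fibro-adipogenic markers to 1901 to 4060.1 CPM, and 6 of 7 and 4 of 5 of them were called lower in WT AMuSCs. Their part in the rise of the set was not tested.

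The abundant nucleolar proteins rose most. *Npm1* measured 449, 343 and 359 CPM in WT FiMuSCs and 2009.8, 1968 and 2094 CPM in WT AMuSCs. Its log2 fold change was 2.49 (SE 0.12, adjusted p = 1.07e-06). *Ncl* rose from 586, 557 and 573 CPM to 2424, 2076 and 2246 CPM, a log2 fold change of 2.06 (SE 0.10, adjusted p = 8.97e-07). Nucleolin binds ribosomal DNA chromatin and the nascent precursor RNA. *Nolc1*, which encodes a chaperone of small nucleolar ribonucleoproteins, and *Mybbp1a* rose too, by 1.82 and 1.37 on the log2 scale. The ribonucleoproteins that guide RNA modification formed the next group, with all 4 genes called higher and a median of 1.67. *Dkc1*, the pseudouridine synthase of the H/ACA class, measured 59.6, 54.1 and 61.5 CPM before and 201, 192 and 202 CPM after injury, with a log2 fold change of 1.85 (SE 0.09, adjusted p = 8.97e-07). For *Nop58*, a core protein of the box C/D class, the counts were 96.7, 107 and 93.8 CPM and 340.5, 314 and 321 CPM, with a log2 fold change of 1.80 (SE 0.09, adjusted p = 1.02e-06). Fibrillarin, the methyltransferase of that class, is encoded by *Fbl*, which rose from 68.6, 76.8 and 73.99 CPM to 167, 170.1 and 164 CPM, with a log2 fold change of 1.28 (SE 0.08, adjusted p = 3.34e-06). In each of these genes the WT AMuSC libraries all lay above the WT FiMuSC libraries.

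Genes of the Pol I machinery rose less, with a median of 0.75 over 6 genes, all called higher. *Rrn3* went from 50.7, 53.2 and 50.2 CPM to 129, 126 and 127 CPM, a log2 fold change of 1.40 (SE 0.07, adjusted p = 1.48e-06), the largest of the 6. *Polr1b*, a catalytic subunit, went from 45.7, 46.6 and 51.8 CPM to 76.9, 69.9 and 85.4 CPM, with a log2 fold change of 0.78 (SE 0.10, adjusted p = 0.000213). *Ubtf* went from 143, 186 and 170.4 CPM to 273, 230.3 and 274 CPM, with a log2 fold change of 0.73 (SE 0.12, adjusted p = 0.000864). In none of these 3 genes did a WT AMuSC library reach down to a WT FiMuSC library. *Polr1a*, the gene of the largest subunit, went from 102, 102 and 113 CPM to 154, 140.4 and 164 CPM, with a log2 fold change of 0.62 (SE 0.09, adjusted p = 0.000437). With coding transcripts counted alone, *Polr1a* had a log2 fold change of -0.07 (SE 0.15, adjusted p = 0.702) and was not called. *Polr1c*, shared with Pol III, rose by 0.66 and *Polr1e* by 1.27.

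Assembly factors of both subunits rose across the board. All 13 small subunit genes were called higher, with log2 fold changes from 0.53 (*Nat10*, an RNA acetyltransferase) to 1.60 (*Rrp12*, a factor of pre-ribosome export) and a median of 1.14. All 12 large subunit genes were called higher, from 0.40 (*Gnl2*, a nucleolar GTPase) to 1.65 (*Nop2*), with a median of 1.25. The PeBoW complex, which acts in the maturation of large subunit rRNA, rose as a whole, with 1.16 for *Pes1*, 1.44 for *Bop1* and 1.49 for *Wdr12*. The RNA helicase gene *Ddx21*, whose product acts in Pol I transcription and precursor processing, rose by 1.45.

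*Myc* went against the rest of the set. It measured 131, 106 and 66.6 CPM in WT FiMuSCs and 58.6, 53.4 and 60.5 CPM in WT AMuSCs, a log2 fold change of -0.73 (SE 0.23, adjusted p = 0.0275). The groups did not overlap, but the 3 FiMuSC libraries differed among themselves by more than those of any other WT group. The call was lost with no filter on low counts and on leaving out each library but WT FiMuSC replicate 3. In *mdx*, *Myc* measured 90.004, 145 and 133 CPM in FiMuSCs and 44.1, 41.5 and 46.1 CPM in AMuSCs, a log2 fold change of -1.49 (SE 0.20, adjusted p = 0.0021), and this call held on leaving out each library. The difference of both responses was -0.79 (SE 0.31, adjusted p = 0.11). Under the alternatives run for WT the log2 fold change of *Myc* stayed below 0, with adjusted p-values from 0.000362 to 0.0858.

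**Figure D2:**
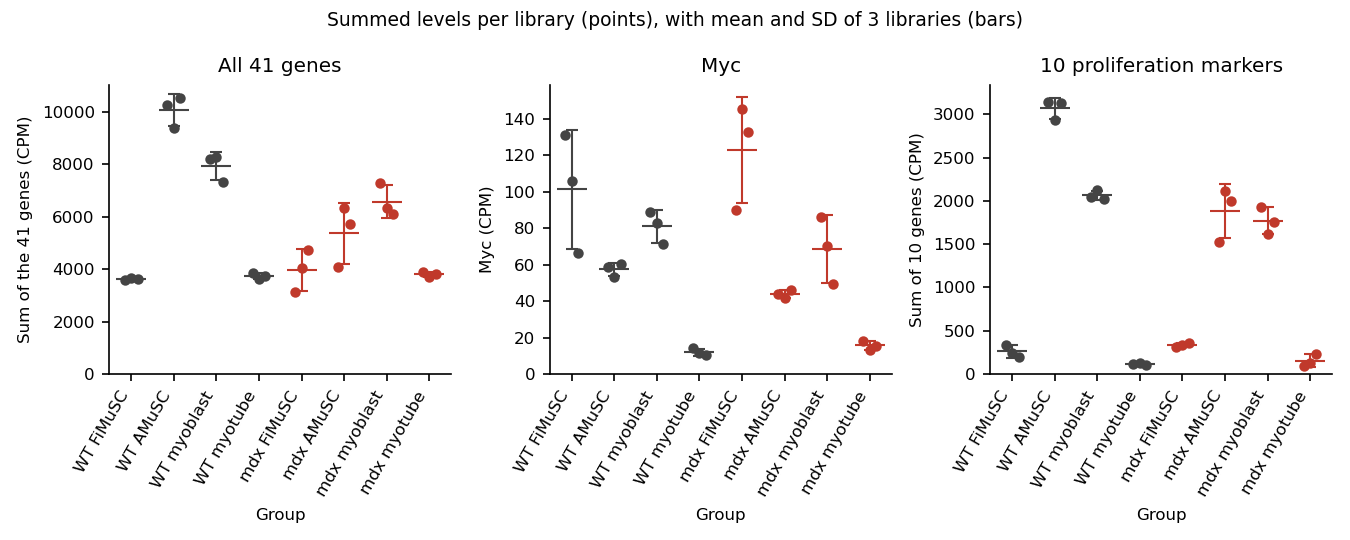
Sum of the 41 genes, Myc and the sum of 10 proliferation markers, each in CPM on an axis from 0, with 1 point per library and bars for mean ± SD of 3 libraries, WT in grey and mdx in red. The set and the proliferation markers are highest in WT AMuSCs, whereas Myc is highest on average in FiMuSCs of both genotypes.

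The same comparison in *mdx* gave few calls. Of the 41 genes, 4 were higher in *mdx* AMuSCs than in *mdx* FiMuSCs and 1, *Myc*, was lower, where 15.5% of 19650 genes were called higher and 11.7% lower. The median log2 fold change of the set was 0.14, against -0.02 for all genes tested. All 10 proliferation markers were called higher after injury in *mdx*, with a median of 2.67. They summed to 308 to 359 CPM in *mdx* FiMuSCs and 1525 to 2116 CPM in *mdx* AMuSCs. Their relation to the set was not tested. *Npm1* rose from 383, 425 and 496 CPM to 841, 1342 and 1060.2 CPM, a log2 fold change of 1.31 (SE 0.22, adjusted p = 0.00563), and was called in every alternative fit and on leaving out each library. *Ncl* rose from 504, 618 and 739.7 CPM to 817, 1357 and 1223 CPM, with a log2 fold change of 0.87 (SE 0.25, adjusted p = 0.0377). *Bop1* rose from 43.01, 46.9 and 54.4 CPM to 57.9, 112 and 87.1 CPM, with a log2 fold change of 0.83 (SE 0.25, adjusted p = 0.0414). The fourth was *Dkc1*, from 47.4, 53.5 and 58.6 CPM to 60.8, 114 and 102 CPM, with a log2 fold change of 0.80 (SE 0.24, adjusted p = 0.0462). In all 4 genes the AMuSC libraries lay above the FiMuSC libraries. With coding transcripts alone *Ncl* had 0.33 (SE 0.24, adjusted p = 0.357), which was not called. The calls of *Ncl*, *Dkc1* and *Bop1* were lost with the length offset, those of *Dkc1* and *Bop1* also without any 1 library other than *mdx* AMuSC replicate 1, and that of *Ncl* without *mdx* FiMuSC replicate 1 or 2 or *mdx* AMuSC replicate 2 or 3. Leaving out *mdx* FiMuSC replicate 1 or 2 or *mdx* AMuSC replicate 2 or 3 left 1 gene higher, and leaving out *mdx* FiMuSC replicate 3 left 2. Without *mdx* AMuSC replicate 1, the library with 3586 CPM of leukocyte markers, 9 genes were higher, 1 was lower and the median was 0.34. The added genes were *Bysl*, *Fbl*, *Nop16*, *Rrn3* and *Ubtf*. A fit over all 24 libraries called 11 higher and 2 lower, and a fit with a transcript length offset called 1 higher and 2 lower.

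The 6 Pol I genes and *Fbl* did not pass the test in *mdx* with all libraries. *Polr1b* measured 32.9, 48.2 and 61.6 CPM in FiMuSCs and 27.5, 35.98 and 40.8 CPM in AMuSCs, with a log2 fold change of -0.45 (SE 0.25, adjusted p = 0.232), and the libraries overlapped. *Polr1a* measured 76.3, 89.7 and 97.9 CPM and 71.7, 104 and 113 CPM, with a log2 fold change of 0.13 (SE 0.20, adjusted p = 0.682). The values of *Ubtf* were 165, 165 and 158 CPM and 171, 247 and 208 CPM, with a log2 fold change of 0.36 (SE 0.17, adjusted p = 0.162). For *Ubtf* the AMuSC libraries lay just above the FiMuSC libraries, while for *Polr1a* they overlapped. *Rrn3* had 49.9, 60.04 and 67.5 CPM and 63.7, 96.5 and 79.8 CPM, with a log2 fold change of 0.43 (SE 0.20, adjusted p = 0.142). *Fbl* had 59.02, 71.99 and 75.9 CPM and 74.7, 127 and 99.8 CPM, with a log2 fold change of 0.54 (SE 0.22, adjusted p = 0.104). Both overlapped between the states. Without *mdx* AMuSC replicate 1, *Fbl* passed at 0.73 (adjusted p = 0.0219), *Ubtf* at 0.50 (adjusted p = 0.0452) and *Rrn3* at 0.59 (adjusted p = 0.0433). The 3 genes also passed in the fit of all 24 libraries, with adjusted p-values of 0.00457, 0.0235 and 0.00927. No small subunit gene of 13 passed, with log2 fold changes from -0.30 (*Utp15*) to 0.71 (*Bysl*). A missing call here does not show that a level was unchanged.

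The difference between the injury responses was tested directly over the 12 libraries of sorted cells. By edgeR the log2 fold change was lower in *mdx* than in WT in 29 of the 41 genes and higher in 0, where 6.98% of 21086 genes were called in that direction. All 41 differences lay below 0, from -1.69 (*Nop58*) to -0.40 (*Ubtf*), with a median of -1.08 against -0.03 for all genes. The smallest adjusted p belonged to *Nop56*, which measured 111, 116 and 108 CPM in WT FiMuSCs and 296, 277 and 339 CPM in WT AMuSCs, against 105, 147 and 171 CPM and 103, 129.9 and 166 CPM in *mdx*. Its responses were 1.53 (SE 0.10) in WT and -0.08 (SE 0.24) in *mdx*, and their difference was -1.65 (SE 0.28, adjusted p = 0.00376). *Gnl3*, which encodes nucleostemin, a GTPase of stem and dividing cells, measured 95.1, 97.9 and 89.6 CPM and 202, 201 and 215 CPM in WT against 82.01, 118 and 141 CPM and 81.5, 90.99 and 118 CPM in *mdx*. The responses of *Gnl3* were 1.22 (SE 0.08) and -0.23 (SE 0.23), with a difference of -1.48 (SE 0.26, adjusted p = 0.00449). With coding transcripts alone the difference of *Gnl3* was -1.04 (SE 0.41, adjusted p = 0.114), which was not called. For *Utp20*, a scaffold protein of small subunit assembly, WT cells had 70.3, 66.1 and 76.5 CPM and 199, 169 and 185 CPM, and *mdx* cells 69.3, 77.6 and 83.7 CPM and 75.2, 95.1 and 114 CPM. Its difference of responses was -1.19 (SE 0.21, adjusted p = 0.00474). The 12 genes whose difference was not called were *Polr1a*, *Polr1c*, *Polr1e*, *Ubtf*, *Myc*, *Bysl*, *Ltv1*, *Nat10*, *Nob1*, *Bop1*, *Ebna1bp2* and *Nop16*. DESeq2 called 34 genes, and 37 had an unadjusted p under 0.05 in edgeR, against 30.0% of all genes tested. Without *mdx* AMuSC replicate 1 the count was 26, and over all libraries left out in turn it was 23 to 36. With the length offset the calls of *Ddx56*, *Fbl*, *Heatr1*, *Pes1*, *Rrp9* and *Wdr75* were lost and that of *Nat10* was gained.

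**Figure D3:**
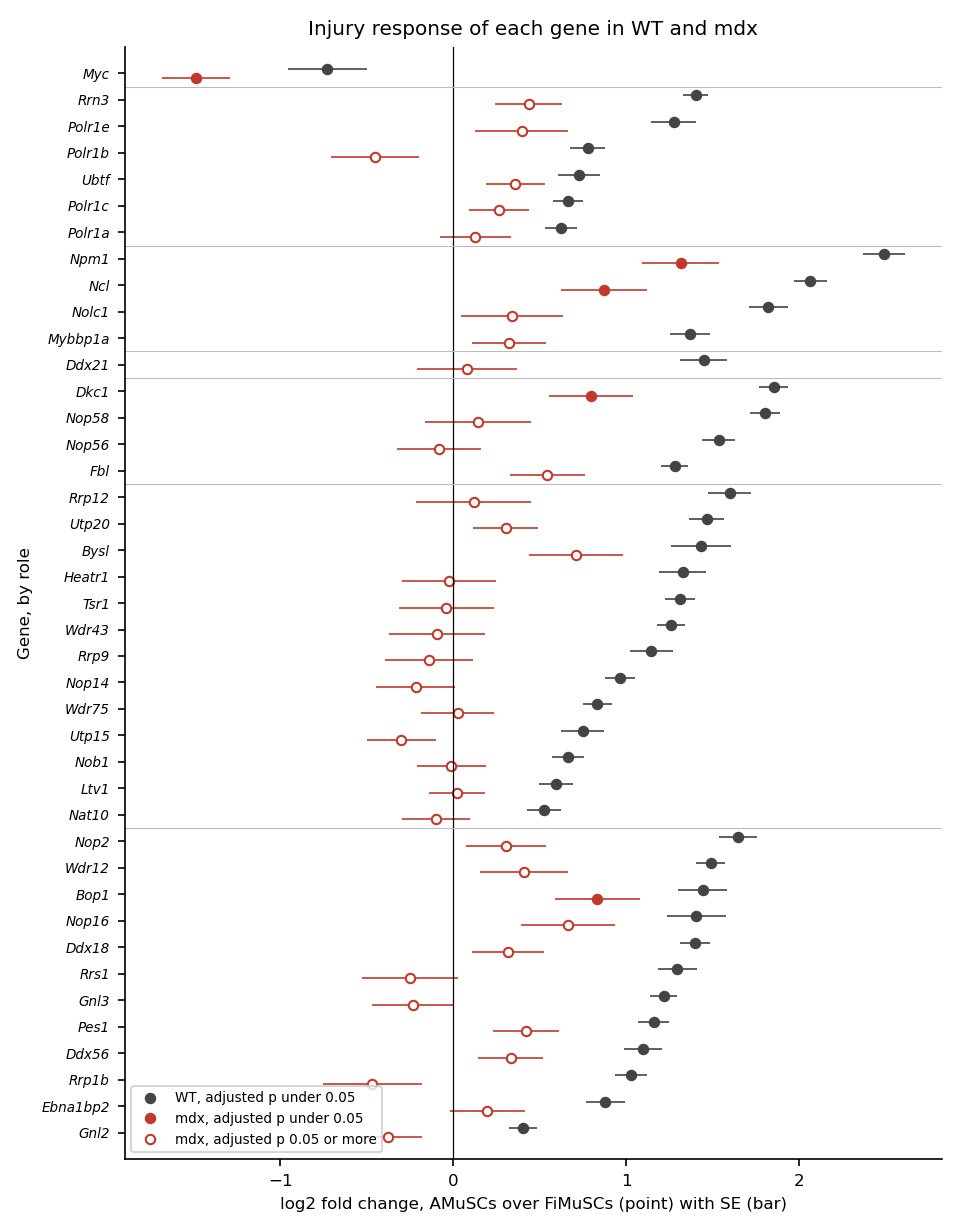
Log2 fold change of AMuSCs over FiMuSCs (horizontal axis, point with SE bar) for each of the 41 genes (vertical axis, by role) in WT (grey) and mdx (red), filled where the adjusted p is under 0.05. In each gene the mdx point lies to the left of the WT point, and Myc alone lies below 0 in WT.

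AMuSCs of both genotypes were then compared with each other. In *mdx* AMuSCs 37 of 41 genes were lower and 0 were higher by edgeR, where 8.95% of 19321 genes were called lower. The median log2 fold change was -0.94, a level 1.91-fold lower, against 0.04 for all genes tested. *Polr1b* measured 76.9, 69.9 and 85.4 CPM in WT AMuSCs and 27.5, 35.98 and 40.8 CPM in *mdx* AMuSCs, without overlap, and had the smallest adjusted p, with a log2 fold change of -1.18 (SE 0.17, adjusted p = 0.00399). The difference was -1.11 (SE 0.16, adjusted p = 0.00454) for *Gnl3* and -1.22 (SE 0.20, adjusted p = 0.00613) for *Nop56*. Among the abundant nucleolar genes it was -0.94 (SE 0.18, adjusted p = 0.0113) for *Npm1*, -1.02 (SE 0.20, adjusted p = 0.0127) for *Ncl* and -0.76 (SE 0.17, adjusted p = 0.0191) for *Fbl*, and in the 3 genes no *mdx* library reached a WT library. *Rrn3* was called lower with a log2 fold change of -0.70 (SE 0.15, adjusted p = 0.0139), as were *Polr1a* with -0.69 (SE 0.18, adjusted p = 0.0281) and *Myc* with -0.41 (SE 0.12, adjusted p = 0.0383). The calls of *Npm1*, *Fbl*, *Rrn3*, *Polr1a* and *Myc* were lost without any 1 of the WT AMuSC libraries, and that of *Ncl* without replicate 1 or 3. That of *Polr1a* was also lost with the length offset (adjusted p = 0.265) and with coding transcripts (adjusted p = 0.0911), and that of *Fbl* with the length offset (adjusted p = 0.0556). *Myc* also lost its call without *mdx* AMuSC replicate 1 (adjusted p = 0.0558) and in 5 other fits, with adjusted p-values from 0.0548 to 0.217. *Ubtf* was not called, with a log2 fold change of -0.34 (SE 0.15, adjusted p = 0.145), nor were *Polr1c* (-0.26), *Ltv1* (-0.37) and *Bop1* (-0.71). Other fits called *Ubtf* lower, DESeq2 with an adjusted p of 0.0440 and edgeR without *mdx* AMuSC replicate 2 with an adjusted p of 0.0289. All 4 ribonucleoprotein genes, 12 of 13 small subunit genes and 11 of 12 large subunit genes were lower, with medians of -1.14, -0.80 and -0.92. DESeq2 called 40 genes lower, and 39 had an unadjusted p under 0.05 in edgeR, against 38.1% of all genes tested.

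The count leaned on the WT libraries and on the handling of transcript length. With the length offset the calls of *Bysl*, *Ebna1bp2*, *Fbl*, *Myc*, *Nob1*, *Pes1*, *Polr1a*, *Polr1e* and *Wdr75* were lost and none was gained. Without WT AMuSC replicate 1 the count fell to 18, without replicate 2 to 25 and without replicate 3 to 13. The median stayed between -1.07 and -0.78 over all libraries left out. Without *mdx* AMuSC replicate 1, 2 or 3 the count was 35, 41 and 35. The leukocyte markers summed to 3586 CPM in *mdx* AMuSC replicate 1, 120 CPM in replicate 2 and 245 CPM in replicate 3. Other values moved with the genotype in AMuSCs. All 10 proliferation markers, *Mki67* and *Pcna* among them, were lower in *mdx* AMuSCs, with a summed level of 2931 to 3145 CPM in WT and 1525 to 2116 CPM in *mdx*. Of the 7 leukocyte markers 7 were at 1 CPM or more on average in *mdx* AMuSCs and 2 in WT AMuSCs, and none was at 0 in every library of either group. Of the 5 fibro-adipogenic markers 4 were at that level in both groups, with the sums given above. Pericyte and smooth muscle markers summed to 96.7 to 133 CPM in WT and 274 to 511 CPM in *mdx*, with 3 of 4 called higher. These markers also summed to 632 to 688 CPM in cultured WT myoblasts and 978 to 1035 CPM in WT myotubes. Of the erythroid markers 2 of 2 were called higher in *mdx*, where 14.8% of all genes were. Of 4 endothelial markers 2 were called higher and 0 lower, and the lowest log2 fold change was -0.87. The endothelial sums overlapped, at 11.5 to 42.7 CPM in WT and 10.3 to 33.5 CPM in *mdx*. Myogenic markers summed to 2391 to 2650.2 CPM in WT and 2908 to 3849 CPM in *mdx*, but did not move as 1 list. Of the 10, 4 were called higher and 2 lower in *mdx*, where 14.8% and 8.95% of all genes were. Their log2 fold changes ran from -1.98 to 1.16, with a median of 0.05. The part of cell cycle state and of other lineages in the lower ribosome biogenesis genes was not tested.

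Genes of the same pathway outside the set followed it. Over all genes tested, 31.6% were called higher and 33.0% lower after injury in WT, and 8.95% were called lower in *mdx* than in WT AMuSCs. Of 40 other small subunit genes tested, 38 rose after injury in WT and none fell, with a median log2 fold change of 0.85, and 28 were lower in *mdx* AMuSCs than in WT AMuSCs. Among 38 other large subunit genes 33 rose and 1 fell in WT, with a median of 0.98, and 30 were lower in *mdx* AMuSCs. For 11 other genes of box C/D and H/ACA ribonucleoproteins, 10 rose in WT and 10 were lower in *mdx* AMuSCs. The 14 other Pol I genes, which include subunits shared with Pol II and Pol III, were less uniform, with 9 rising and 2 falling in WT and 6 lower in *mdx* AMuSCs. Of 14 Pol III genes 7 rose and 3 fell in WT, and in *mdx* AMuSCs 2 were higher and 4 lower than in WT, where 14.8% of all genes were called higher and 8.95% lower. In the *mdx* injury response, 2 of the 40 small subunit genes and 2 of the 38 large subunit genes rose, where 15.5% of all genes did. The difference of the responses was called in 22 and 25 of them, all smaller in *mdx*, where 6.98% of all genes were called in that direction.

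Within the MYC and MAX network, genes of the MXD family, whose products pair with MAX in place of MYC and repress E-box genes, differed between the genotypes after injury. *Mxd4* measured 119, 169.7 and 200.1 CPM in WT FiMuSCs and 33.9, 35.9 and 27.7 CPM in WT AMuSCs, against 149, 129.6 and 124 CPM and 169.7, 174 and 116 CPM in *mdx*. It fell in WT, with a log2 fold change of -2.24 (SE 0.21, adjusted p = 7.11e-05) and was not called in *mdx*, at 0.19 (SE 0.18, adjusted p = 0.502). The difference of the responses was 2.40 (SE 0.29, adjusted p = 0.000672), and the level in *mdx* AMuSCs over WT AMuSCs was 2.21 (SE 0.18, adjusted p = 0.000899). *Mxd1* had a difference of 1.39 (SE 0.38, adjusted p = 0.0298) and *Mxi1* of 0.87 (SE 0.21, adjusted p = 0.0182), both in the same direction. *Mxd1* measured 25.6 CPM in *mdx* AMuSC replicate 1 and 11.7 and 11.1 CPM in the other two. *Mycl* and *Mxd3* rose after injury in both genotypes, with a log2 fold change of 2.19 (SE 0.21, adjusted p = 2.94e-05) for *Mycl* in WT and 2.39 (SE 0.37, adjusted p = 0.0042) in *mdx*, and of 3.18 (SE 0.18, adjusted p = 2.34e-06) and 2.99 (SE 0.28, adjusted p = 0.000503) for *Mxd3*. *Mycn* fell in WT from 9.53, 7.02 and 10.9 CPM to 3.25, 2.97 and 3.42 CPM, with a log2 fold change of -1.42 (SE 0.21, adjusted p = 0.000472). Of the 10 genes of the list 2 rose and 6 fell in WT, and 3 were higher in *mdx* AMuSCs, beside shares over all genes of 31.6% and 33.0% in WT and 14.8% in AMuSCs.

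Before injury no gene of the set differed between the genotypes at the threshold. Of 41 genes 0 were called in *mdx* against WT FiMuSCs by edgeR and 0 by DESeq2, where edgeR called 9.67% of 19406 genes in either direction. In the set 1 gene had an unadjusted p under 0.05 in edgeR, against 25.6% of all genes tested. The median was 0.14, with log2 fold changes from -0.26 (*Polr1a*) to 0.45 (*Nop58*). The 3 *mdx* FiMuSC libraries were spread widely, and replicate 1 was the lowest in 40 of 41 genes, with sums as given above. Without replicate 1, 9 genes were higher in *mdx*, namely *Gnl3*, *Nop14*, *Nop2*, *Nop56*, *Nop58*, *Rrp1b*, *Rrs1*, *Tsr1* and *Wdr43*. The leukocyte markers summed to 338 to 1019 CPM in *mdx* FiMuSCs against the 60.2 to 298 CPM of WT, and their part in these values was not tested. For the Pol I genes and *Myc*, whose library values are given with the injury responses, the test gave a log2 fold change of 0.28 (SE 0.27, adjusted p = 0.575) for *Myc*, -0.26 (SE 0.11, adjusted p = 0.19) for *Polr1a* and -0.01 (SE 0.21, adjusted p = 0.981) for *Polr1b*. It gave a log2 fold change of -0.03 (SE 0.11, adjusted p = 0.912) for *Ubtf* and 0.21 (SE 0.11, adjusted p = 0.303) for *Rrn3*. Of the abundant genes, *Ncl* had a log2 fold change of 0.12 (SE 0.14, adjusted p = 0.635), *Npm1* 0.18 (SE 0.14, adjusted p = 0.451) and *Fbl* -0.08 (SE 0.11, adjusted p = 0.692).

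In culture too, edgeR called no gene of the set between the genotypes. In myoblasts 0 of 41 genes were called by edgeR, where it called 0.360% of 17226 genes. At an unadjusted p under 0.05 there were 8 of the 41, against 14.4% of all genes tested. By DESeq2 3 genes were lower in *mdx*, *Ddx21*, *Ncl* and *Npm1*. Of the fold changes, 39 of 41 lay below 0, with a median of -0.20 against 0.02 for all genes tested. Genes of the set can shift together within a library, so these signs are not 41 separate results. *Ncl* measured 1633, 1649.7 and 1382 CPM in WT and 1218, 1169 and 1121 CPM in *mdx* myoblasts, with a log2 fold change of -0.40 (SE 0.09, adjusted p = 0.151), and the libraries did not overlap. *Npm1* had 1432, 1397 and 1244 CPM and 1151, 1142 and 1049 CPM, with a log2 fold change of -0.27 (SE 0.08, adjusted p = 0.242). *Polr1b* had 67.8, 75.4 and 62.7 CPM and 65.8, 35.99 and 29.6 CPM, with a log2 fold change of -0.64 (SE 0.30, adjusted p = 0.404), and overlapped, since *mdx* replicate 1 lay within the WT range. The log2 fold change was -0.22 (SE 0.21, adjusted p = 0.662) for *Myc*, -0.19 (SE 0.12, adjusted p = 0.524) for *Polr1a*, -0.15 (SE 0.08, adjusted p = 0.476) for *Ubtf*, -0.13 (SE 0.11, adjusted p = 0.627) for *Rrn3* and -0.22 (SE 0.08, adjusted p = 0.301) for *Fbl*. The library of *mdx* myoblast replicate 2 held 148 CPM of leukocyte markers against 2.84 and 4.62 CPM in the others. Without *mdx* replicate 1, 1 gene, *Polr1b*, was called lower.

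In myotubes edgeR called 0 of 41 genes, where it called 0.591% of 16084 genes. At an unadjusted p under 0.05 there were 3 of the 41, against 13.6% of all genes tested. DESeq2 gave 2 genes as lower in *mdx*, *Bop1* and *Polr1b*. The median was 0.06. *Polr1b* measured 62.2, 56.6 and 61.4 CPM in WT and 48.1, 37.4 and 41.04 CPM in *mdx* myotubes, with a log2 fold change of -0.51 (SE 0.12, adjusted p = 0.153), the widest difference in the set, and its libraries did not overlap. *Myc* measured 14.04, 11.3 and 10.2 CPM and 18.4, 13.3 and 15.3 CPM, with a log2 fold change of 0.40 (SE 0.18, adjusted p = 0.395). The *Myc* libraries overlapped. The other Pol I genes gave a log2 fold change of -0.14 (SE 0.10, adjusted p = 0.594) for *Polr1a*, 0.08 (SE 0.07, adjusted p = 0.681) for *Ubtf* and -0.01 (SE 0.06, adjusted p = 0.971) for *Rrn3*. *Ncl* gave a log2 fold change of 0.05 (SE 0.07, adjusted p = 0.783), *Npm1* 0.14 (SE 0.07, adjusted p = 0.432) and *Fbl* 0.15 (SE 0.10, adjusted p = 0.557). Without *mdx* replicate 1, 1 gene, *Polr1b*, was called lower.

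Differentiation lowered most of the set in both genotypes. In WT 33 of 41 genes were lower in myotubes than in myoblasts and 4 were higher, where 34.5% of 16907 genes were called lower and 34.9% higher. The median log2 fold change was -0.71, against -0.02 for all genes tested. In *mdx* 25 genes were lower and 4 higher, where 26.5% of 17206 genes were called lower and 25.8% higher, with a median of -0.52 against -0.07. All 25 genes lower in *mdx* were also lower in WT, and the same 4 genes were higher in both. Without TMM scaling the median of all genes moved to -0.32 in WT and -0.40 in *mdx*, and the counts became 36 lower and 3 higher in WT and 33 and 3 in *mdx*.

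*Myc* fell furthest, from 88.9, 82.8 and 71.3 CPM in WT myoblasts to 14.04, 11.3 and 10.2 CPM in WT myotubes, a log2 fold change of -2.76 (SE 0.14, adjusted p = 1.59e-06). In *mdx* it fell from 86.5, 70.3 and 49.4 CPM to 18.4, 13.3 and 15.3 CPM, with a log2 fold change of -2.11 (SE 0.24, adjusted p = 0.000561). *Utp20* had the smallest adjusted p in WT and went from 185, 183 and 185 CPM to 37.6, 39.1 and 39.9 CPM, with a log2 fold change of -2.24 (SE 0.05, adjusted p = 1.06e-07), and in *mdx* its log2 fold change was -1.93 (SE 0.21, adjusted p = 0.000525). *Npm1* went from the levels given above to 325, 326 and 319.9 CPM in WT myotubes, with a log2 fold change of -2.06 (SE 0.07, adjusted p = 3.12e-07), and to 340.04, 351 and 380.3 CPM in *mdx* myotubes, with a log2 fold change of -1.62 (SE 0.09, adjusted p = 6.74e-05). The libraries of both states lay far apart in each of these genes. *Ncl* fell to 475, 462 and 452 CPM in WT, with a log2 fold change of -1.74 (SE 0.08, adjusted p = 1.09e-06), and to 462, 470.1 and 513 CPM in *mdx*, with a log2 fold change of -1.25 (SE 0.09, adjusted p = 0.000125). The methyltransferase gene *Fbl* fell from 139.9, 132 and 130.3 CPM to 52.3, 41.8 and 44.2 CPM in WT, with a log2 fold change of -1.53 (SE 0.09, adjusted p = 2.25e-06), and from 125, 111 and 107 CPM to 47.4, 51.9 and 54.9 CPM in *mdx*, with a log2 fold change of -1.13 (SE 0.10, adjusted p = 0.000228). *Nop58* fell from 292, 284 and 266 CPM to 117, 111 and 115 CPM in WT, with a log2 fold change of -1.29 (SE 0.06, adjusted p = 8.13e-07). All 4 abundant nucleolar genes and all 4 ribonucleoprotein genes were lower in both genotypes.

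The Pol I genes moved less. *Rrn3* measured 153, 154 and 142 CPM in WT myoblasts and 153, 155 and 155 CPM in WT myotubes, with a log2 fold change of 0.05 (SE 0.06, adjusted p = 0.418), and 158, 121 and 129 CPM and 149, 156 and 158 CPM in *mdx*, with a log2 fold change of 0.20 (SE 0.12, adjusted p = 0.193). *Polr1b* had a log2 fold change of -0.18 (SE 0.08, adjusted p = 0.0889) in WT and -0.03 (SE 0.31, adjusted p = 0.953) in *mdx*, neither called. In WT *Polr1b* was called lower with no filter, with the length offset, without TMM and without myoblast replicate 3. *Polr1a* went from 143, 142 and 136 CPM to 130.2, 109 and 123 CPM in WT, with a log2 fold change of -0.21 (SE 0.07, adjusted p = 0.0288), and had a log2 fold change of -0.13 (SE 0.15, adjusted p = 0.514) in *mdx*. The log2 fold change of *Polr1a* in WT was 0.023 with a transcript length offset and 0.19 with coding transcripts alone, and its call was also lost in the fit of all 24 libraries and on leaving out WT myoblast replicate 1 or 2 or WT myotube replicate 2 or 3. *Ubtf* fell from 188, 199.6 and 192 CPM to 123, 115 and 120.2 CPM in WT, with a log2 fold change of -0.68 (SE 0.05, adjusted p = 1.32e-05), and from 161, 165 and 195 CPM to 115, 134 and 131 CPM in *mdx*, with a log2 fold change of -0.43 (SE 0.11, adjusted p = 0.0169). *Polr1c* fell in both genotypes, with -0.70 in WT and -0.74 in *mdx*. *Polr1e* fell in WT, with -0.58, and its call in *mdx* (-0.52, adjusted p = 0.0471) was lost on leaving out any 1 of the 6 libraries, with size factors of DESeq2, with no filter, with the length offset and with coding transcripts. Without *mdx* myoblast replicate 1, *Rrn3* was called higher in *mdx*, at 0.33 (adjusted p = 0.0336). Without TMM scaling *Rrn3* was called lower in WT, at -0.25.

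The 4 genes that rose in myotubes were *Rrp12*, *Bysl*, *Bop1* and *Gnl2*, all assembly factors. *Rrp12* measured 58.6, 65.9 and 52.98 CPM in WT myoblasts and 125, 102 and 122 CPM in WT myotubes, a log2 fold change of 0.99 (SE 0.11, adjusted p = 0.000107). In *mdx* it went from 64.5, 49.6 and 40.6 CPM to 113, 103 and 90.4 CPM, with a log2 fold change of 1.02 (SE 0.19, adjusted p = 0.0044). *Bop1* went from 136, 151 and 118 CPM to 208, 198 and 209 CPM in WT, with a log2 fold change of 0.61 (SE 0.09, adjusted p = 0.000601), and from 113, 107 and 104 CPM to 172, 181 and 169.8 CPM in *mdx*, with a log2 fold change of 0.72 (SE 0.08, adjusted p = 0.000543). Its partners in the PeBoW complex did not follow, with -0.28 for *Pes1* and -0.58 for *Wdr12* in WT, both called lower, and -0.05 and -0.29 in *mdx*, neither called. In WT the call of *Pes1* was lost in the fit of all 24 libraries and that of *Wdr12* with the length offset. In *Rrp12* and *Bop1* the myotube libraries lay above the myoblast libraries of the same genotype. *Bysl* went from 62.1, 65.1 and 57.9 CPM to 89.1, 89.7 and 96.6 CPM in WT, with a log2 fold change of 0.58 (SE 0.07, adjusted p = 0.000142), and from 59.6, 57.2 and 51.8 CPM to 82.2, 92.03 and 90.5 CPM in *mdx*, with a log2 fold change of 0.68 (SE 0.09, adjusted p = 0.00108). Its exons share 361 bases with *Ccnd3* on the opposite strand, a gene that averaged 440.3 CPM in WT myoblasts and 931 CPM in WT myotubes, and the strand setting of the counting is not given in the sources used here. *Gnl2* went from 89.3, 95.1 and 89.3 CPM to 111, 103 and 109 CPM in WT, with a log2 fold change of 0.25 (SE 0.06, adjusted p = 0.005), and had a log2 fold change of 0.31 (SE 0.10, adjusted p = 0.0365) in *mdx*. The rise of *Gnl2* depended on the processing, since without TMM the log2 fold change was -0.057 in WT and -0.020 in *mdx*, and neither was called, whereas the other three stayed higher. The call of *Gnl2* was also lost in the fit of all 24 libraries and with the length offset in both genotypes, and in *mdx* with no filter and without each library but myoblast replicate 1.

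**Figure D4:**
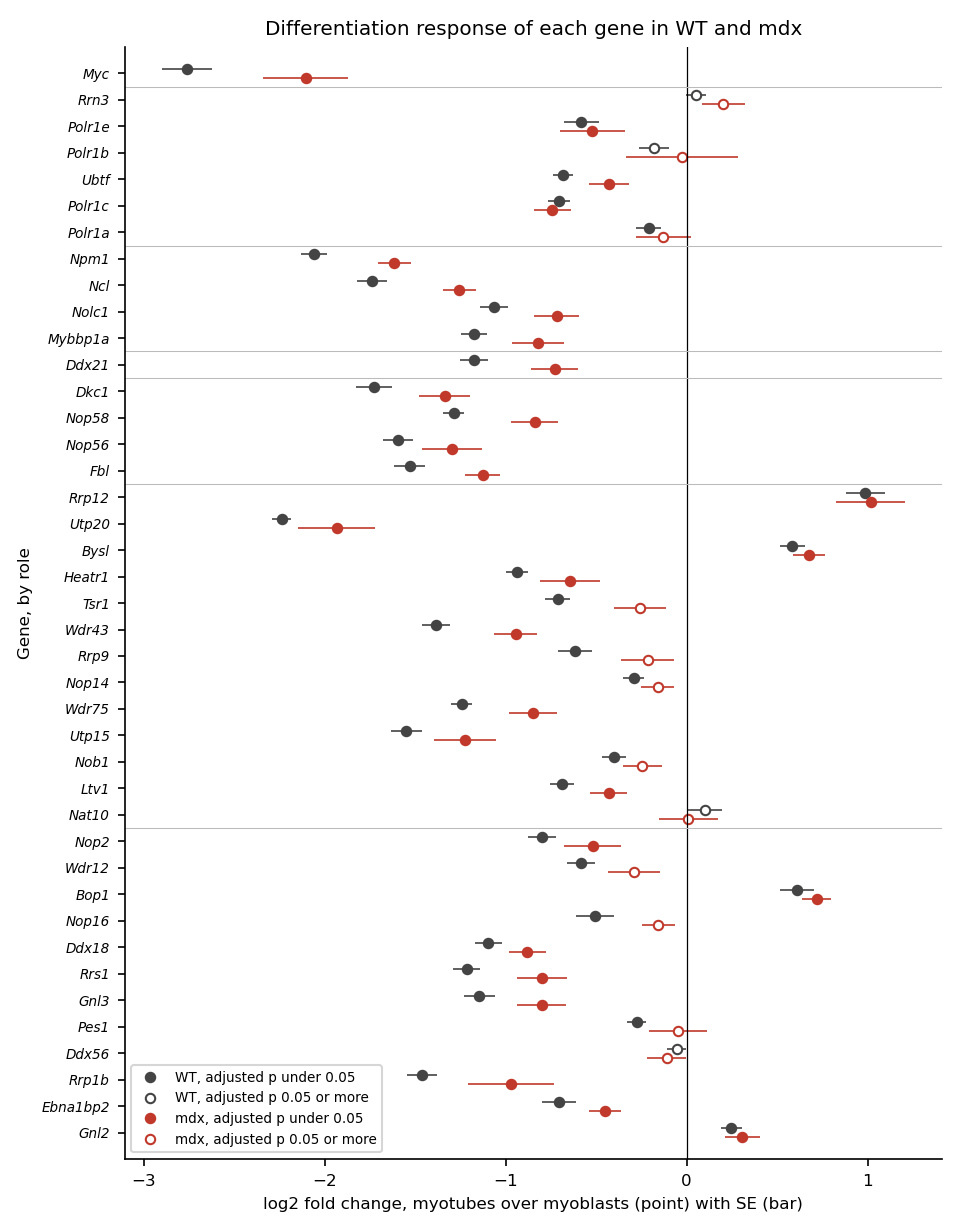
Log2 fold change of myotubes over myoblasts (horizontal axis, point with SE bar) for each of the 41 genes (vertical axis, by role) in WT (grey) and mdx (red), filled where the adjusted p is under 0.05. Most points lie left of 0 with Myc, Utp20 and Npm1 furthest, Rrp12, Bysl, Bop1 and Gnl2 lie to the right in both genotypes, and mdx points tend to lie to the right of WT points.

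The difference between the differentiation responses was called in 0 of 41 genes by edgeR, where it called 0.0592% of 18585 genes. In the set 18 genes had an unadjusted p under 0.05 in edgeR, against 12.3% of all genes tested. By DESeq2 2 genes, *Ncl* and *Npm1*, fell less in *mdx*. The difference, *mdx* minus WT, was above 0 in 38 of 41 genes, with a median difference of 0.32 against 0.03 for all genes tested. Here too the genes can shift together within a library, so the signs are not 41 separate results. All 10 proliferation markers fell in both genotypes, from 2022 to 2126 CPM in WT myoblasts to 98.7 to 122 CPM in WT myotubes, and from 1623 to 1936 CPM to 96.1 to 234 CPM in *mdx*. Of the other genes of the pathway, 27 of 40 small subunit genes fell and 5 rose in WT, and 15 fell and 4 rose in *mdx*. Of 38 large subunit genes, 27 fell and 2 rose in WT, and 17 fell and 2 rose in *mdx*. Over all genes tested, 34.5% fell and 34.9% rose in WT, and 26.5% fell and 25.8% rose in *mdx*.

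*Ubtf* is made in forms that differ in their coding sequence, and their balance was read from TPM. The annotation holds 4 transcripts for a protein of 764 residues, known to be the form active in Pol I transcription, and 4 for one of 727 residues that lacks part of a DNA-binding HMG box. The longer form made up 52.5, 42.9 and 42.9% of both in WT FiMuSCs and 57.9, 61.0 and 61.7% in WT AMuSCs, so the groups did not overlap. In *mdx* it made up 42.1, 41.1 and 40.2% in FiMuSCs and 47.0, 58.4 and 50.001% in AMuSCs, again without overlap. In cultured cells the share ran from 38.3 to 53.6% with no separation of states. By level, the longer form measured 18.6, 21.3 and 20.1 TPM in WT FiMuSCs and 34.2, 30.4 and 34.6 TPM in WT AMuSCs, whereas the shorter form had 16.8, 28.3 and 26.7 TPM and 24.9, 19.5 and 21.4 TPM. These shares were looked at after the data were seen and were not tested.

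**Figure D5:**
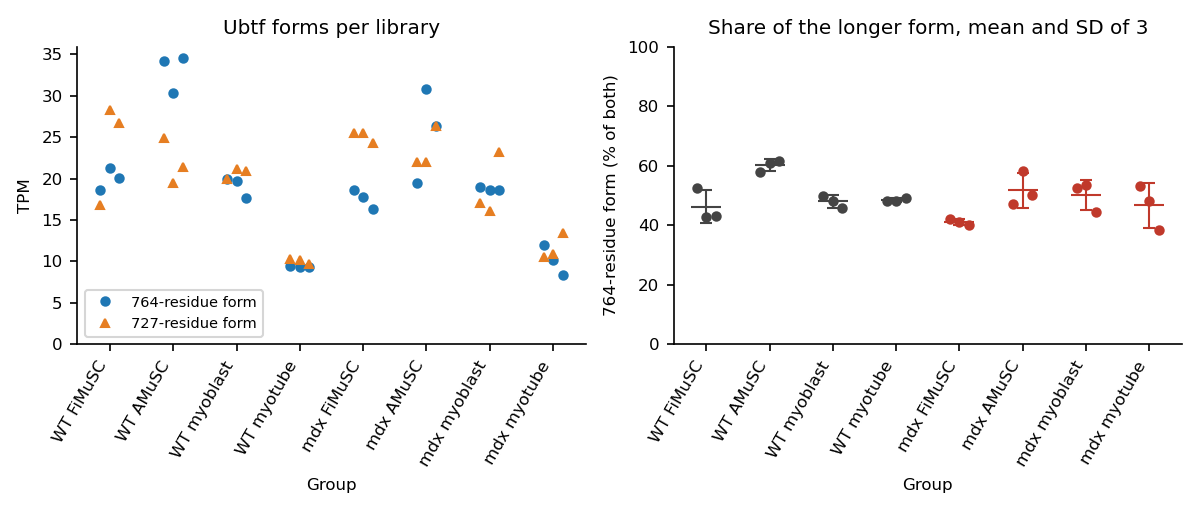
Left, TPM of the 764-residue (blue circles) and 727-residue (orange triangles) forms of Ubtf in each of 24 libraries. Right, the share of the longer form in percent of both on an axis from 0 to 100, with 1 point per library and bars for mean ± SD of 3, WT in grey and mdx in red, where AMuSCs lie above FiMuSCs in both genotypes.

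Other transcript classes made up much of the signal. Transcripts annotated as protein coding held 67.6 to 70.8% of the counts of the 41 genes in sorted cells and 71.4 to 77.9% in cultured cells, and the rest fell on retained introns and other non-coding transcripts. With coding transcripts alone 39 genes rose after injury in WT, 33 were lower in *mdx* AMuSCs and 27 differed in their injury response. Several members also carry small nucleolar RNAs in their introns, the guides of rRNA modification. An annotated snoRNA gene lay on the same strand within 7 of the 41 genes (17.1%), against 259 of 21951 protein coding genes (1.18%). They were *Ncl*, *Nop56*, *Nop58*, *Dkc1*, *Gnl3*, *Wdr43* and *Tsr1*. Poly(A) libraries do not measure the small RNAs themselves.

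Shared sequence limits some values. For *Fbl*, *Npm1* and *Nop56*, transcripts of near-identical copies, mostly pseudogenes, took 12.8 to 37.6%, 12.8 to 15.9% and 7.93 to 11.5% of the counts of gene and copies together, and for *Pes1* up to 3.84%. With copies added, 40 genes rose after injury in WT and 38 were lower in *mdx* AMuSCs, while *Fbl* lost its call in the difference of injury responses. *Tsr1* shared 1240 exon bases with *Srr* on the opposite strand (7.64 to 43.3 CPM as group means), *Heatr1* 155 with *Lgals8* and *Mybbp1a* 131 with *Spns2*. No member shared 100 exon bases or more with an expressed gene on its own strand.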

How the data were processed

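Poly(A) RNA of 24 libraries, 3 biological replicates in each of 8 groups, had been sequenced from a directional library kit with 20 ng of RNA. The authors deposited, for each library, estimated counts per transcript in the format of Salmon, which the submitters' processing notes name as version 0.13.1 beside DESeq2 and GRCm38. They also deposited TPM per transcript, scaled by effective length. Roles, settings and the handling of strand are not given in the sources used here, and whether replicates were separate animals is not given either, so p-values cover the spread between these libraries. Every per-sample column used belongs to 1 library and 0 were left unused.

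Transcripts were joined to genes by their GENCODE names, and 53355 of 53392 genes matched release 21 of the mouse annotation. Estimated counts were summed per gene and rounded. Each comparison was tested on its own libraries with the quasi-likelihood test of edgeR 4.0.16 in R 4.3.3, two-sided, with TMM scaling, filterByExpr and robust dispersion. P-values were adjusted by Benjamini-Hochberg over all genes tested, and a gene was called at an adjusted p under 0.05. Differences between responses were interaction terms over 12 libraries, and the 2 injury responses share no library. Standard errors were the log2 fold change over the square root of F. The steps were tested on simulated data with genes changed by known folds. Of simulated 2-fold changes, 55.2% were called in the WT injury response, 16.4% in the *mdx* one and 10.45% for their difference. For *mdx* against WT the share was 43.3% in FiMuSCs and 47.8% in AMuSCs. Of simulated 1.5-fold changes, 7.46% were called in *mdx* against WT FiMuSCs. Counts of calls in different comparisons therefore do not compare on equal terms. Alternatives were size factors of DESeq2, no filter, DESeq2 1.42.0, all 24 libraries in 1 fit, a length offset, the replicate number as a block, copies added and each library left out. No TMM scaling, coding transcripts alone and the rule for copies in the form used were added after the data were seen. Copies were searched with blastn 2.17.0 (identity of 90% or more over 200 bases). A match was used where it spanned 50% or more of the other transcript, which kept 31 of 118 matched genes.

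The members, the lists beside them and the tests were chosen with earlier results of these data known. Genes named with full values were *Myc*, *Polr1a*, *Polr1b*, *Ubtf*, *Rrn3*, *Ncl*, *Npm1* and *Fbl* in each comparison within a state or genotype, the 3 called members with the smallest adjusted p in each direction, and members called against the majority. Promoter windows came from RefSeq (GRCm38.p6). Total counts of 37280196 to 64429222 per library leave counting error small for these genes, so that the spread between 3 libraries sets the precision.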

Additional observations from a re-analysis of the deposited data

Results flagged for a closer look

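The injury response differed between the genotypes in 29 of the 41 genes, all of them lower in *mdx*, by the interaction test of edgeR over the 12 libraries of sorted cells. Over all 21086 genes tested, 6.98% were called in that direction. Among the genes named by the smallest adjusted p, the difference, *mdx* minus WT on the log2 scale, was -1.65 for *Nop56*, -1.48 for *Gnl3* and -1.19 for *Utp20*. With coding transcripts alone *Gnl3* was at -1.04 (adjusted p = 0.114 in edgeR) and was not called. Proliferation markers and markers of leukocytes, fibro-adipogenic progenitors, pericytes and smooth muscle, and erythroid cells also differed between *mdx* and WT AMuSCs. Of 4 endothelial markers 2 were called higher in *mdx* AMuSCs, with overlapping sums. The part of these markers in the differences of the injury response was not tested.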

How the results depend on the processing

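Of 1248 values of named genes under an alternative, 1141 kept their direction and their side of the threshold, 60 lost and 19 gained a call, 22 were uncalled in both fits with another sign, and 6 others changed sign. The 6 were *Polr1a* in the WT injury response (-0.071 with coding transcripts), *Polr1a* in WT differentiation (0.023 with the length offset and 0.19 with coding transcripts) and, with no TMM scaling, *Gnl2* (-0.057 in WT and -0.020 in *mdx*) and *Rrn3* (-0.25 in WT) in differentiation. No TMM scaling also moved the median of the set in differentiation to -1.02 in WT and -0.85 in *mdx*, with the median of all genes. DESeq2 called 3 genes lower in *mdx* myoblasts, 2 lower in *mdx* myotubes and 2 higher for the difference of differentiation responses. Shares of all genes called are given for the main fits only. Counts from DESeq2, from other alternatives and from fits without a library therefore have no such share beside them. With no filter 0 genes fell after injury in WT. In the *mdx* injury response, the fit of all 24 libraries called 11 higher and 2 lower, the length offset 1 higher and 2 lower, and coding transcripts gave a median of 0.33. The cause of these shifts was not tested.

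Leaving out each library in turn gave 0 to 9 genes higher in *mdx* FiMuSCs, 13 to 41 lower in *mdx* AMuSCs, 0 to 1 lower in *mdx* myoblasts and in *mdx* myotubes, 0 to 1 lower after injury in WT, and 1 to 9 higher after injury in *mdx*, where the median ran from 0.034 to 0.39.

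The replicate number as a block gave 35 genes lower in *mdx* AMuSCs and 34 in the difference of injury responses, and left the other counts as they were. Same-numbered libraries shared deviations with correlations of -0.182 to 0.377, and in no comparison were all 3 over 0.1, so the numbers were not taken as pairs. The rule for copies as first written also took genes that share a repeat and was not run. The number of libraries, 3 a group, limits the smallest change that could be called.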

Other observations

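Among genes of the pathway outside the set, 3 went against their own group in the WT injury response. *Nop53*, a large subunit factor that is also a tumour suppressor, fell with a log2 fold change of -1.16, where 33 of 38 large subunit genes rose. *Taf1a*, a subunit of the Pol I promoter factor SL1, fell with -0.69, and *Taf1c* of the same complex with -0.40, whereas *Taf1d*, another subunit, rose with 1.60. *Nop53* and *Taf1a* were also called lower after injury in *mdx*, with -0.74 and -1.02. In the Pol III list, *Maf1*, the repressor of Pol III, fell after injury in WT with -1.29 and was higher in *mdx* than in WT AMuSCs with 0.73. *Polr3gl* and *Polr3g* encode alternative subunits of Pol III. After injury in WT, *Polr3gl* fell with -1.45 and *Polr3g* rose with 1.31, and in *mdx* AMuSCs against WT they measured 0.99 and -1.05, both called. During WT differentiation the log2 fold changes were 1.87 for *Polr3gl* and -0.97 for *Polr3g*. *Rcl1*, of small subunit processing, fell most of its list in WT differentiation (-2.63) and was the 1 gene of the lists whose differentiation response was called different between the genotypes, with 0.86 for *mdx* minus WT. These genes were chosen after their values were seen.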
